A study of Mus musculus with 16 samples.

Results

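Glycolysis, glucose uptake, glycogen and pyruvate genes were followed in the heads of mouse embryos with and without Ift88. The 38 genes were taken by symbol from the gene count tables, and they are the carriers, enzymes and regulators that bring glucose into the cell, turn it into pyruvate, lactate or glycogen, and admit pyruvate to the mitochondrion. All 38 were among the 24421 genes listed in the tables, and all 38 were among the 14514 genes with enough reads to be tested (at least 10 counts in at least 4 libraries). Expression is given as CPM, that is, reads of a gene per 1000000 reads of its library after scaling.

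The study measured RNA by sequencing in head tissue of embryonic day 8.5, cut from the first branchial arch to just above the otic vesicle. Wild type embryos and embryos labelled homozygous IFT88-NULL were compared. Folic acid in the feed was 2 ppm (moderate diet) or 10 ppm (enriched diet), kept up over 3 generations of mice. The groups were therefore moderate diet wild type, moderate diet mutants, enriched diet wild type and enriched diet mutants, with 4 libraries each. All embryos were of the F3 generation. The Ift88 protein belongs to the intraflagellar transport complex, without which cilia are not built. The sources used here give neither the exons the null allele lacks, nor the strain, nor the litter of each embryo. Embryos of a group may share litters, so p-values here cover only the variation among these libraries.

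Glycolysis splits glucose into pyruvate in a chain of enzymes, several of which exist as isoforms from different genes. Hexokinase traps glucose, phosphofructokinase commits it to the pathway, and pyruvate is then either reduced to lactate and exported or oxidised by the pyruvate dehydrogenase complex, which pyruvate dehydrogenase kinases switch off. Embryos at the stage of neural tube closure are known to rely strongly on glycolysis. Many genes of the pathway are textbook targets of the low-oxygen factor HIF1, whose binding sites upstream of them often hold the core sequence ACGTG.

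Libraries held 19249433 to 44267434 reads assigned to genes. Ift88 read 17.9 to 20.9 CPM in 7 of the 8 wild type libraries, 9.3 CPM in moderate diet wild type replicate 2, and 2.01 to 8.61 CPM in the mutants. In 3 libraries, moderate diet wild type 2 and moderate diet mutants 1 and 2, the sex given by the label was contradicted by sex-linked counts, so results on the moderate diet are also given without them. Moderate diet mutant 3 had the lowest level among the mutants of its group in 29 of the 38 genes described here. Neural marker genes read 1230 to 1480 CPM in sum, 10 head mesenchyme and neural crest markers 365 to 480 CPM and 10 surface ectoderm markers 220 to 325 CPM, and all 30 markers were detected. Heart and muscle markers read 24.2 CPM in sum in moderate diet mutant 3 and 4.54 to 11 CPM in the other 15 libraries.

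Stretches upstream of 5 of these genes are shown because those of 3 genes hold the ACGTG core and those of 2, which belong to genes with some of the largest increases, do not. Each is the part of the 250 bases before a RefSeq start site on build GRCm38.p6 that lies in no exon of the GENCODE vM21 annotation, read 5′ to 3′ along the gene's strand, with ACGTG or its reverse complement CACGT in capitals. Where both overlap as CACGTG, the sequence is at the same time an E-box, the letters bound by MYC and related factors. Ppp1r3c encodes a scaffold that brings a phosphatase to glycogen.
Ppp1r3c, chr19:36736654-36736854, minus strand: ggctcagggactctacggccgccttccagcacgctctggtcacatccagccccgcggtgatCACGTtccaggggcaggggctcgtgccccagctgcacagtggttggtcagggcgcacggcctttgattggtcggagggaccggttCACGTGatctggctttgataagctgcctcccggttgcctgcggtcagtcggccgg
Pgk1 encodes phosphoglycerate kinase, a step of glycolysis that makes ATP.
Pgk1, chrX:106186850-106187099, plus strand: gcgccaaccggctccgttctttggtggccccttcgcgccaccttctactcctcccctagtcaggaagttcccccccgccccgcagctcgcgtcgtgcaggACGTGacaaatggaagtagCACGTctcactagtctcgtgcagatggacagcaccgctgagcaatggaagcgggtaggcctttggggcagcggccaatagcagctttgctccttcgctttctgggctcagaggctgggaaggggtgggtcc
Ldha encodes the lactate dehydrogenase subunit that favours lactate production, and the window of its other RefSeq start (chr7:46846832-46847081) holds no match.
Ldha, chr7:46845554-46845803, plus strand: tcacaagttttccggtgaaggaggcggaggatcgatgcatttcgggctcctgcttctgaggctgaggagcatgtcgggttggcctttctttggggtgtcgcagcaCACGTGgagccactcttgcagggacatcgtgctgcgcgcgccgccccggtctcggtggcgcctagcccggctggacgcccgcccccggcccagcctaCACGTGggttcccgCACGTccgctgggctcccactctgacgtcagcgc
Eno2 encodes the enolase isoform known from neurons.
Eno2, chr6:124769674-124769862, minus strand: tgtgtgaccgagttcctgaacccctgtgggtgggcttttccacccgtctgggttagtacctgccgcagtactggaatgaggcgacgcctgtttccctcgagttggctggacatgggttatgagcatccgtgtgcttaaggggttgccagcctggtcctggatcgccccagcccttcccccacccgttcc
Pfkp encodes the platelet isoform of phosphofructokinase.
Pfkp, chr13:6648778-6649021, minus strand: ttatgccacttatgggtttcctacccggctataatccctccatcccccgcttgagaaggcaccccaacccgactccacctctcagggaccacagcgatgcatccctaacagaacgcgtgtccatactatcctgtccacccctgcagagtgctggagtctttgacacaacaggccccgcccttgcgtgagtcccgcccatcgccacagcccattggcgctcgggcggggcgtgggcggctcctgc
RefSeq start sites were matched by symbol for 37 of the 38 genes, with 54 windows of 250 bases. ACGTG on either strand was found in 25 of the 54 windows (46.3%), against 16.6% of the 32817 windows of all genes and 21.2% of the windows of genes tested. Among windows of the 27 matched genes that were higher in mutants over both diets, 18 of 38 held it (47.4%), and among windows of the other 10 genes 7 of 16 did (43.8%). Windows of the same gene can overlap. Counted by gene, 15 of those 27 (55.6%) and 6 of the other 10 (60.0%) held it, against 24.9% of genes tested. Only ACGTG was searched for, and a match or its absence describes the sequence only.

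Most of the 38 genes were higher in mutants than in wild type on both diets. On the moderate diet 27 rose, 1 fell and 10 did not pass the test (quasi-likelihood test of edgeR, with p-values adjusted over all genes by Benjamini-Hochberg and a threshold of 0.05). Of all genes tested, 7.62% passed, with 4.79% higher and 2.83% lower. On the enriched diet 28 rose, 2 fell and 8 did not pass. Of all genes 31.2% passed, with 14.4% higher and 16.8% lower. The median log2 fold change over the 38 genes was 0.81 on the moderate diet and 0.61 on the enriched diet, beside -0.01 for all genes tested on either diet. Rises on both diets were found for 27 of the 38 genes, against 4.24% of all genes, and 1 gene, Pfkfb4, fell on both, against 2.22%. In these bulk samples a different number of cells of a type and a different amount of RNA per cell cannot be told apart.

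The 4 mutants lay above all 4 wild type libraries for 25 genes on the moderate diet, where 8.5% of all genes did so, and for 24 genes on the enriched diet, where 11.2% did. For 21 genes this held on both diets, against 4.2% of all genes. Mutants lay below all wild type libraries for 2 genes, Pfkfb4 and Pygb, on each diet, where 7.06% and 12.5% of all genes did so, and 3.22% on both. Without the 3 libraries of contradicted sex label, 13 genes rose and none fell on the moderate diet, and 105 of all genes passed. With 3 wild type and 2 mutants left, the log2 fold changes of 32 of the 38 genes were still positive, with a median of 0.66. Averaged over both diets, 28 genes rose and 2 fell, where 35.8% of all genes passed (17.4% higher and 18.5% lower). The counts of 28 and 2 were the same without those 3 libraries. The 5202 of all genes became 2964 to 5645 over that and the other alternative settings, those without single libraries aside.

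**Figure D1:**
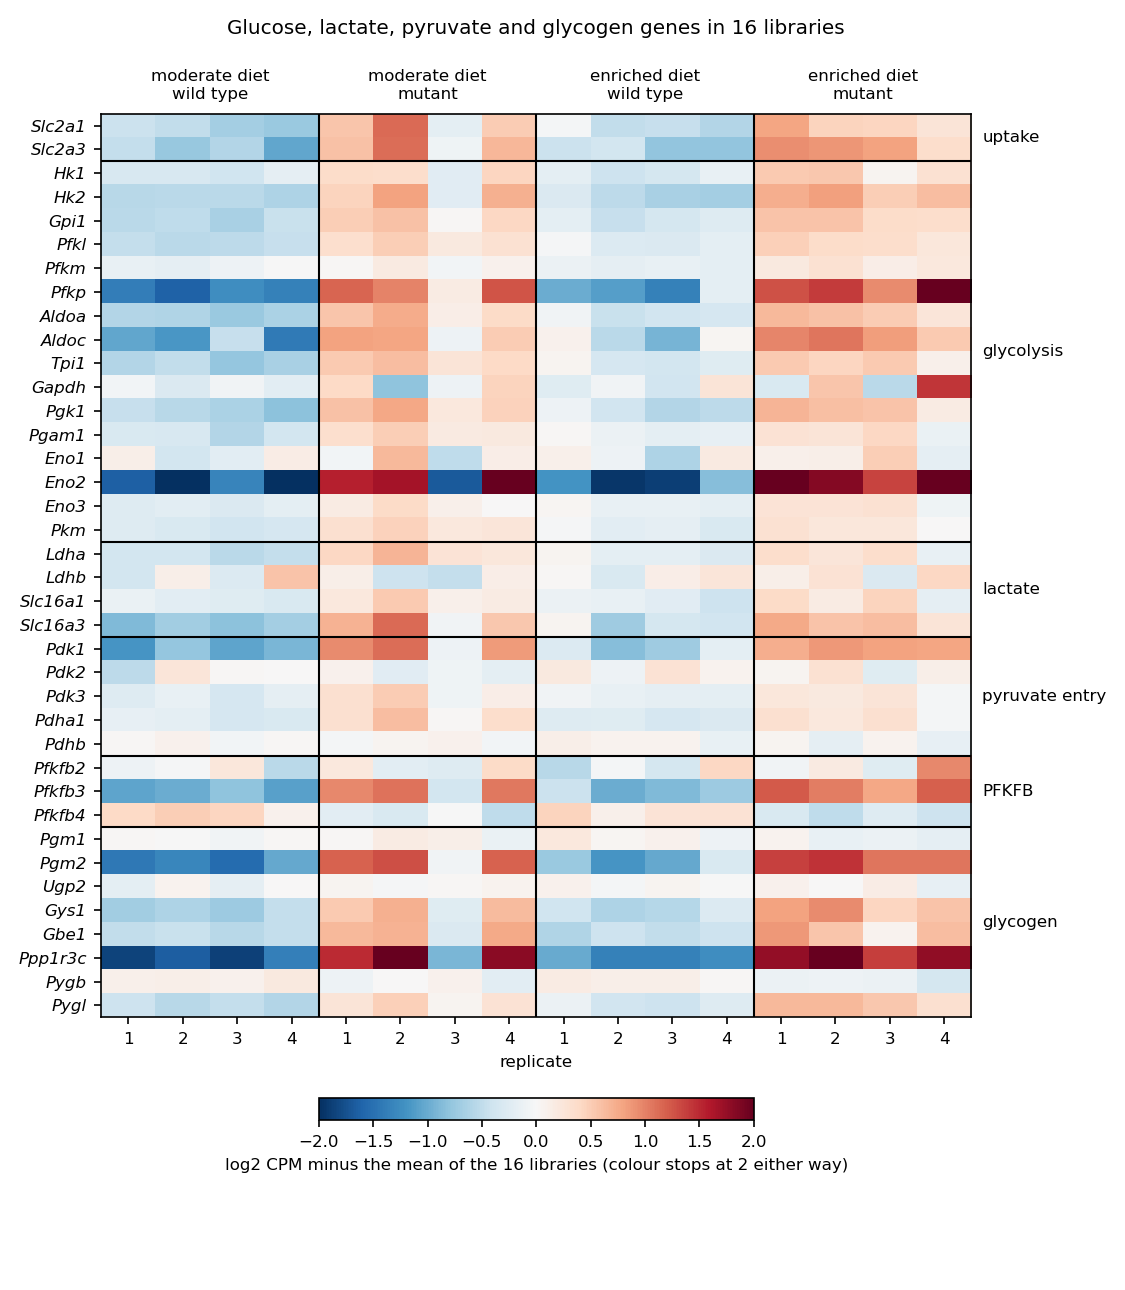
Level of each of the 38 genes (rows, grouped by step) in each of the 16 libraries (columns, by group and replicate), as log2 CPM minus the mean of that gene over the 16 libraries. Most rows are blue in wild type and red in mutants on both diets. In rows of genes that rose, moderate diet mutant 3 is mostly either a paler red than the other mutants of its group or blue. Eno2 (-1.68) and Ppp1r3c (-0.92) are among its blue cells.

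Both glucose carriers rose. Slc2a1 encodes GLUT1, the widely expressed glucose carrier (chr4:119108711-119137983, build mm10, GENCODE vM21). Moderate diet libraries read 861, 820, 718 and 690 CPM in wild type and 1700, 2530, 1000 and 1640 CPM in mutants, in the order of replicates 1 to 4. With the enriched diet, wild type gave 1120, 817, 839 and 767 CPM and mutants 1980, 1580, 1550 and 1380 CPM. Every mutant was above every wild type library of its diet, and moderate diet mutants 2 and 3 were the highest and the lowest mutants. Mutants differed from wild type on the log2 scale by 1.16 ± 0.20 (± SE) with the moderate and 0.85 ± 0.21 with the enriched diet (edgeR adjusted p = 0.00258 and 0.00682). Without the 3 libraries of contradicted sex label it was 0.78 on the moderate diet and no longer passed (edgeR adjusted p = 0.166).

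Slc2a3, which encodes the high-affinity carrier GLUT3 (chr6:122727809-122801640), also rose. Wild type read 956, 791, 894 and 651 CPM and mutants 2000, 2880, 1260 and 2110 CPM on the moderate diet. The enriched diet gave 996, 1040, 775 and 770 CPM in wild type and 2540, 2460, 2320 and 1700 CPM in mutants. The groups did not overlap on either diet. The genotype effect on the log2 scale was 1.32 ± 0.20 on the moderate diet and 1.30 ± 0.20 on the enriched diet (edgeR adjusted p = 0.000815 and 0.000439). On the moderate diet it was 0.96 without the 3 libraries and no longer passed (edgeR adjusted p = 0.107).

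Of the 16 genes of the glycolytic chain, 13 rose on the moderate diet and 14 on the enriched diet, and none fell. The first enzyme, hexokinase, is encoded here by Hk1 and Hk2. Hk2, the isoform that responds to growth and metabolic signals (chr6:82725025-82774454), read 216, 217, 217 and 206 CPM in wild type and 428, 552, 270 and 519 CPM in mutants on the moderate diet. Levels with the enriched diet were 259, 219, 202 and 196 CPM in wild type and 523, 559, 444 and 483 CPM in mutants. The groups were apart on both diets, with moderate diet mutant 3 nearest to wild type. This gave log2 fold changes of 1.05 ± 0.16 and 1.20 ± 0.17 (edgeR adjusted p = 0.000929 and 0.000202). Without the 3 libraries of contradicted sex label the moderate diet calls of Hk2 (log2 0.91, edgeR adjusted p = 0.0822) and Hk1 (0.46, adjusted p = 0.398) were lost. Hk1, the housekeeping isoform, rose by less, with 0.55 ± 0.13 and 0.66 ± 0.13 on the log2 scale, and moderate diet mutant 3 (69.2 CPM) lay inside the wild type range of 61.6 to 71.2 CPM.

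Gpi1, which interconverts glucose and fructose phosphates, rose by 0.93 ± 0.11 on the moderate diet and 0.79 ± 0.11 on the enriched diet on the log2 scale. The next step, phosphofructokinase, has 3 isoforms that differed in size of change. Pfkl, the liver isoform and the most abundant, rose by 0.84 ± 0.08 and 0.55 ± 0.08. Pfkm, the muscle isoform, rose on the enriched diet (log2 0.38 ± 0.07, edgeR adjusted p = 0.000822). On the moderate diet its log2 fold change of 0.17 ± 0.06 did not pass (edgeR adjusted p = 0.108). The test of the difference between its genotype effects did not pass either (log2 0.21 ± 0.09, edgeR adjusted p = 0.501).

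Pfkp (chr13:6579768-6648777) changed most among the phosphofructokinases. Wild type read 9.08, 7.75, 9.97 and 9.33 CPM and mutants 53.6, 47.5, 26.7 and 57.1 CPM on the moderate diet. For the enriched diet the values were 12, 11.1, 9.29 and 20.8 CPM in wild type and 57.8, 62.7, 45.9 and 97 CPM in mutants. No mutant overlapped with wild type, moderate diet mutant 3 was the lowest mutant, and enriched diet wild type 4 was above the other wild type libraries. The log2 fold change was 2.34 ± 0.25 and 2.39 ± 0.25 (edgeR adjusted p = 3.78e-05 and 3.16e-05), and on the moderate diet it was 2.27 without the 3 libraries (adjusted p = 0.00685). Pfkp shares 748 exon bases with Pitrm1 on the other strand, and the library kit keeps no strand. Pitrm1 itself had log2 fold changes of 0.00 and -0.06.

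**Figure D2:**
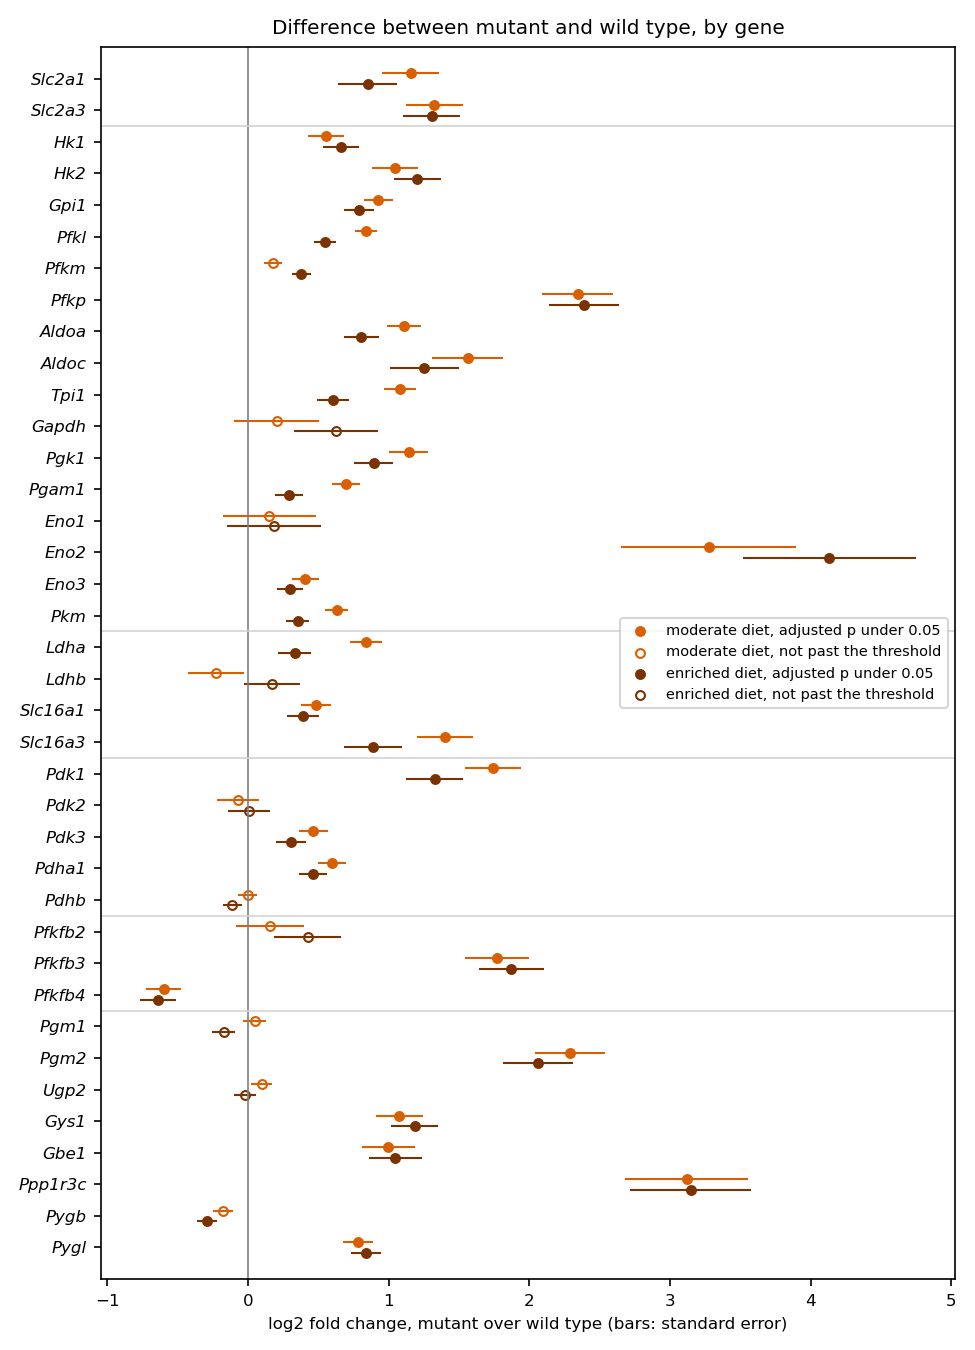
Log2 fold change of mutants over wild type for each of the 38 genes on the moderate diet (orange) and on the enriched diet (brown), with standard errors as bars, and filled points where the edgeR adjusted p was under 0.05. Eno2, Ppp1r3c, Pfkp and Pgm2 lie farthest to the right, and Pfkfb4 and Pygb are the filled points left of zero.

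Aldolase splits the sugar chain. Aldoa, the main isoform, rose by 1.11 ± 0.12 and 0.80 ± 0.12 on the log2 scale, and its near-identical copies Aldoart1 and Aldoart2 were counted as genes of their own. Aldoc, the brain isoform (chr11:78322968-78327781), was low. On the moderate diet it read 2.5, 2.28, 3.78 and 1.92 CPM in wild type and 9.19, 9.02, 4.87 and 7.4 CPM in mutants. On the enriched diet it read 5.56, 3.58, 2.69 and 5.37 CPM in wild type and 10.3, 11.1, 9.39 and 7.49 CPM in mutants. The groups did not overlap on either diet, but wild type libraries of the enriched diet spread widely. Mutants differed from wild type on the log2 scale by 1.56 ± 0.25 and 1.25 ± 0.25 (edgeR adjusted p = 0.00122 and 0.00182). Without the 3 libraries it was 1.28 on the moderate diet and did not pass (edgeR adjusted p = 0.14).

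Tpi1, which interconverts the products of aldolase, rose by 1.08 ± 0.11 on the moderate and 0.60 ± 0.12 on the enriched diet on the log2 scale. Gapdh, the next enzyme, held only 113 to 696 counts per library in the tables, that is, 4.96 to 23.6 CPM, far under its neighbours in the pathway. Its log2 fold changes of 0.20 ± 0.30 and 0.62 ± 0.30 did not pass (edgeR adjusted p = 0.74 and 0.121). Gapdh has many near-identical pseudogenes. HTSeq tallied alignments that were not unique on a line of their own, at 77.2 to 94.9% of the number of reads assigned to genes. How many of these came from Gapdh is not known, so this row is uncertain.

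Pgk1 (chrX:106187100-106203699), whose upstream bases are shown above, read 173, 163, 154 and 135 CPM in wild type and 360, 408, 277 and 331 CPM in mutants on the moderate diet. Among enriched diet embryos, wild type read 223, 183, 160 and 167 CPM and mutants 385, 364, 357 and 269 CPM. All mutants were above all wild type libraries of their diet, the lowest being moderate diet mutant 3 and enriched diet mutant 4. The genotype effect on the log2 scale was 1.14 ± 0.14 and 0.89 ± 0.14 (edgeR adjusted p = 9.38e-05 and 0.000417). Pgam1, the phosphoglycerate mutase, rose by 0.70 ± 0.10 and 0.29 ± 0.10 on the log2 scale. Its call on the enriched diet (edgeR adjusted p = 0.0355) was lost in 5 of 19 alternative settings, and that on the moderate diet without the 3 libraries (log2 0.54, adjusted p = 0.0718).

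Enolase makes phosphoenolpyruvate and has 3 isoforms. Eno2 (chr6:124760053-124769673) had the largest fold change of the 38 genes. Moderate diet libraries read 2.31, 1.69, 2.88 and 1.64 CPM in wild type and 21.7, 23.3, 2.23 and 33.1 CPM in mutants. The enriched diet gave 3.16, 1.85, 1.93 and 4.03 CPM in wild type and 40.2, 26.3, 18.8 and 90.7 CPM in mutants. Moderate diet mutant 3 lay inside the wild type range, the other 7 mutants lay above it, and enriched diet mutant 4 was the highest. This gave log2 fold changes of 3.28 ± 0.62 on the moderate diet (9.69-fold) and 4.13 ± 0.62 on the enriched diet (17.6-fold), with edgeR adjusted p = 0.00437 and 0.000327. The moderate diet call was lost with limma-voom and without the 3 libraries (edgeR adjusted p = 0.125, log2 3.26).

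Eno3, the muscle isoform, rose by 0.41 ± 0.09 and 0.30 ± 0.09 on the log2 scale. Its moderate diet call was lost without the 3 libraries (log2 0.28, edgeR adjusted p = 0.468). The row named Eno1 held only 6 to 19 counts per library, and its copy Eno1b held 10391 to 35240 counts. Which of the copies the reads came from cannot be told apart. Eno1b rose by 0.62 ± 0.09 and 0.32 ± 0.10 (edgeR adjusted p = 0.000714 and 0.0192). With both rows summed, the log2 fold change was 0.63 ± 0.09 and 0.34 ± 0.10 (edgeR adjusted p = 0.000685 and 0.0137), where the Eno1 row alone did not pass (adjusted p = 0.886 and 0.702). With the sum in place of Eno1, 29 of the 38 genes passed on the moderate and 31 on the enriched diet. With the rows apart, 7.62% and 31.2% of all genes passed. Pkm, the pyruvate kinase that ends the chain, rose by 0.63 ± 0.08 and 0.35 ± 0.08.

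**Figure D3:**
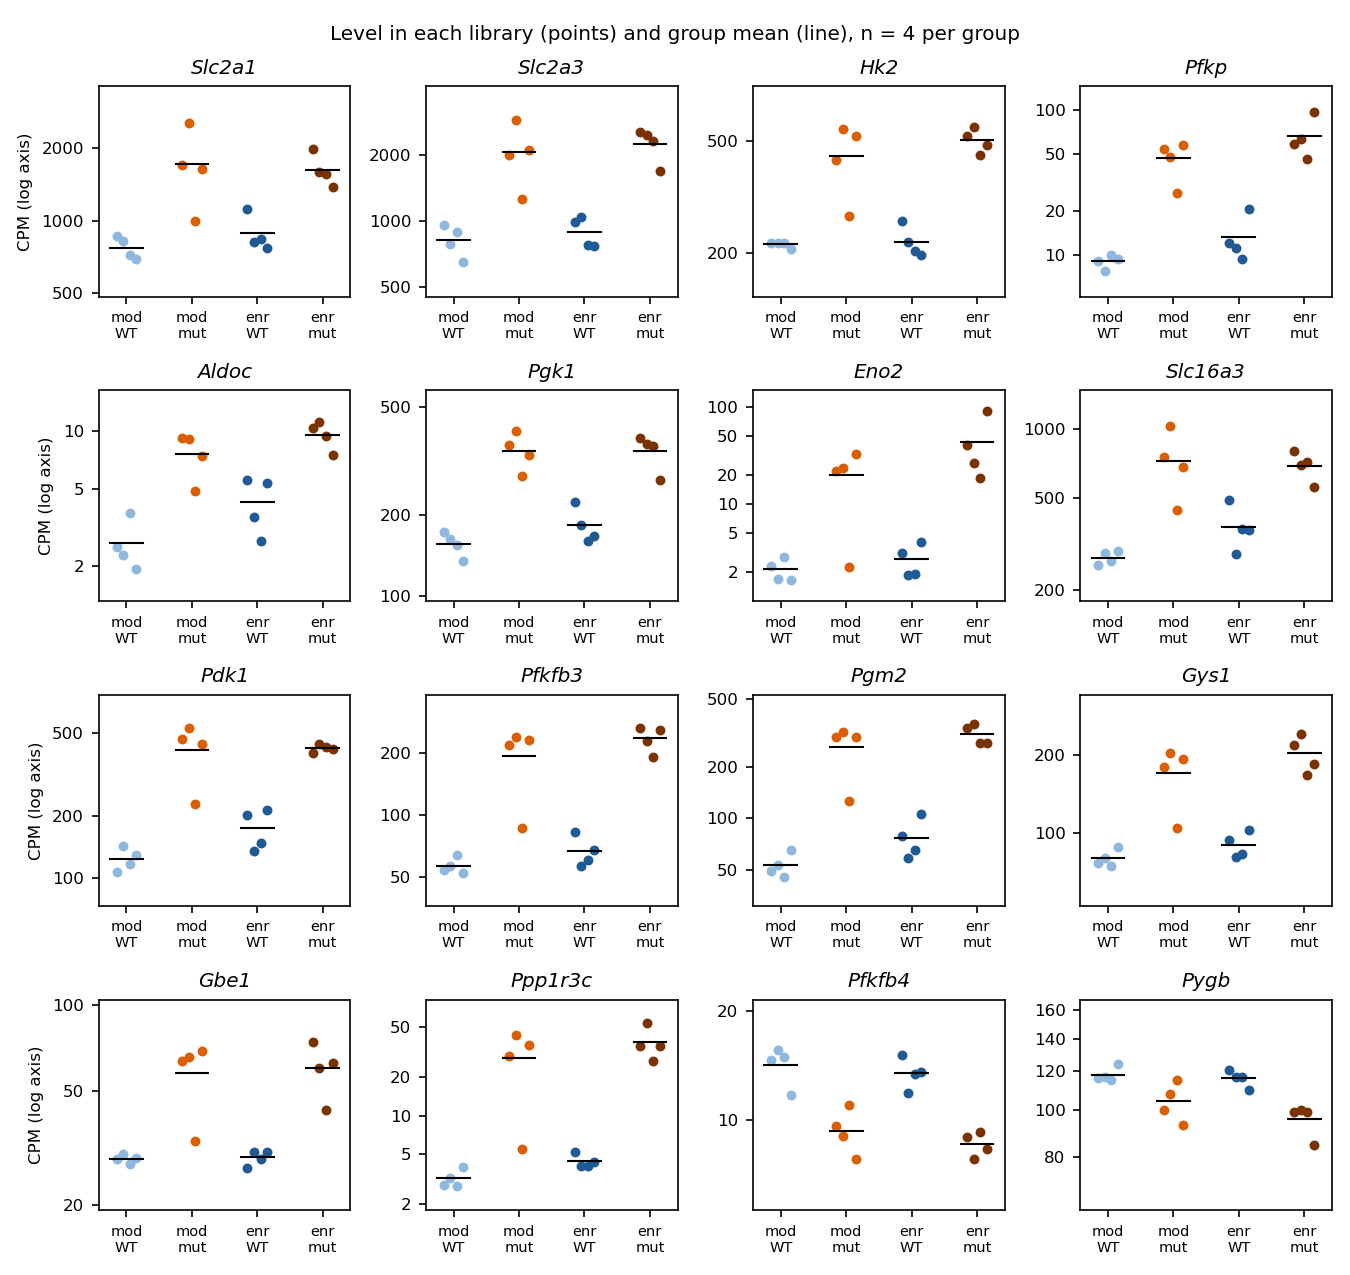
Level in CPM (log axis, with its own range for each gene) of the 14 genes with a mean rise of at least 1 on the log2 scale and of the 2 genes that fell, with a point for each library and a line for the mean of 4. Moderate diet mutant 3 is the lowest orange point in the panels of genes that rose, and for Eno2 it sits at the wild type level.

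Levels were compared between genes per kilobase of exon. In moderate diet wild type the order began with Ldha (681 ± 40.0 CPM per kilobase, SD, n = 4) and Pkm (678 ± 24.4), which did not differ beyond their spread. Aldoa (426 ± 18.8), Eno1b (295 ± 26.4), Tpi1 (223 ± 18.1), Slc2a1 (220 ± 23.2), Slc2a3 (114 ± 18.4) and Pfkl (90.9 ± 2.31) followed, with Tpi1 and Slc2a1 within each other's spread. Pfkp (0.674 CPM per kilobase) and Eno2 (0.453) stood near the bottom, together with Aldoc (0.803) and Ppp1r3c (1.18). The largest fold changes thus belonged to genes that were low in wild type, while the largest absolute differences per kilobase belonged to the abundant enzymes. For Ldha the mean went from 681 to 1220 CPM per kilobase on the moderate diet, and for Eno2 from 0.453 to 4.27.

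Of the 4 lactate genes, 3 rose on both diets. Ldha rose by 0.84 ± 0.12 and 0.33 ± 0.12 on the log2 scale (edgeR adjusted p = 0.000321 and 0.0425). The first call was lost without the 3 libraries (log2 0.65, adjusted p = 0.05 after rounding, which just missed the threshold). The second was lost in 7 of 19 alternative settings, and enriched diet mutant 4 (2740 CPM) lay inside the wild type range of 2490 to 3170 CPM. Ldhb, which favours the reverse reaction from lactate to pyruvate, had log2 fold changes of -0.23 ± 0.20 and 0.17 ± 0.20 that did not pass (edgeR adjusted p = 0.525 and 0.541). Slc16a1, the lactate carrier MCT1, rose by 0.48 ± 0.11 and 0.39 ± 0.11, and on the moderate diet its value was 0.29 without the 3 libraries and did not pass (edgeR adjusted p = 0.513).

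Slc16a3 encodes MCT4, the carrier that exports lactate from glycolytic cells (chr11:120948480-120960868). On the moderate diet it read 256, 290, 266 and 295 CPM in wild type and 760, 1030, 447 and 686 CPM in mutants. Levels with the enriched diet were 491, 287, 367 and 363 CPM in wild type and 800, 697, 721 and 561 CPM in mutants. The groups did not overlap, and enriched diet wild type 1 was the highest wild type library. The log2 fold change was 1.40 ± 0.20 and 0.89 ± 0.21 (edgeR adjusted p = 0.000501 and 0.00481).

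Of the 5 genes that govern entry of pyruvate into the mitochondrial cycle, 3 rose on both diets. Pdk1, a kinase that inactivates pyruvate dehydrogenase (chr2:71873224-71903858), read 107, 143, 117 and 129 CPM in wild type and 471, 528, 227 and 441 CPM in mutants on the moderate diet. For the enriched diet the values were 201, 136, 148 and 213 CPM in wild type and 403, 445, 427 and 420 CPM in mutants. The groups were apart on both diets, and the 4 enriched diet mutants lay close together. Mutants differed from wild type on the log2 scale by 1.74 ± 0.20 and 1.33 ± 0.20 (edgeR adjusted p = 6.15e-05 and 0.000352), and on the moderate diet 1.55 without the 3 libraries (adjusted p = 0.00579). Pdk3, another kinase of the complex, rose by 0.46 ± 0.10 and 0.30 ± 0.11, and its calls were lost in 3 and 5 of 19 alternative settings. Without the 3 libraries Pdk3 had log2 0.24 on the moderate diet (edgeR adjusted p = 0.468). Pdk2, another isoform, had log2 fold changes of -0.07 ± 0.15 and 0.01 ± 0.15 that did not pass.

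Pdha1, the catalytic subunit that the kinases act on, rose by 0.60 ± 0.10 and 0.46 ± 0.10 on the log2 scale. Its moderate diet call was not kept without the 3 libraries (log2 0.41, edgeR adjusted p = 0.159). Pdha1 shares 603 exon bases with Map3k15 on the other strand, and Map3k15 rose as well, with log2 fold changes of 1.22 and 2.08. Their reads cannot be told apart in the shared bases. Pdhb, the partner subunit, had log2 fold changes of -0.00 ± 0.07 and -0.11 ± 0.07, which did not pass (edgeR adjusted p = 0.988 and 0.236).

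The PFKFB enzymes make and remove a sugar bisphosphate that activates phosphofructokinase, and their genes moved in opposite directions. Pfkfb3, the isoform with the strongest kinase activity (chr2:11471433-11554077), read 54.1, 56.3, 64.3 and 52.6 CPM in wild type and 218, 238, 86.5 and 232 CPM in mutants on the moderate diet. On the enriched diet it read 83.1, 56.6, 60.7 and 67.9 CPM in wild type and 264, 228, 192 and 258 CPM in mutants. The groups did not overlap, and moderate diet mutant 3 was far under the other mutants. The genotype effect on the log2 scale was 1.77 ± 0.23 and 1.87 ± 0.23 (edgeR adjusted p = 0.00017 and 0.000104).

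Pfkfb4 (chr9:108991778-109032228) fell. Wild type read 14.7, 15.6, 14.9 and 11.7 CPM and mutants 9.6, 9.02, 11 and 7.8 CPM on the moderate diet. With the enriched diet, wild type gave 15.1, 11.9, 13.4 and 13.6 CPM and mutants 8.99, 7.79, 9.28 and 8.34 CPM. All mutants were below all wild type libraries of their diet. This gave log2 fold changes of -0.60 ± 0.12 and -0.64 ± 0.13 (edgeR adjusted p = 0.00742 and 0.00198), and on the moderate diet it was -0.53 without the 3 libraries and did not pass (adjusted p = 0.292). Pfkfb4 is itself a textbook target of HIF1, as Pfkfb3 is. Pfkfb2 had log2 fold changes of 0.16 ± 0.24 and 0.42 ± 0.24 that did not pass.

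Of the 8 glycogen genes, 5 rose on both diets, and these sit on both the making and the breaking side. The phosphoglucomutases move glucose phosphate into and out of glycogen. The symbols Pgm1 and Pgm2 were exchanged between annotation releases, and the sources used here do not name the release, so no position is given for these rows. The row named Pgm2 read 48.7, 53.5, 45.4 and 64.7 CPM in wild type and 299, 322, 126 and 300 CPM in mutants on the moderate diet. The enriched diet gave 78.7, 58.4, 65.1 and 106 CPM in wild type and 341, 359, 276 and 279 CPM in mutants. The groups did not overlap, and the log2 fold change was 2.29 ± 0.25 and 2.06 ± 0.25 (edgeR adjusted p = 3.78e-05 and 9.59e-05). The row named Pgm1 had 0.05 ± 0.08 and -0.17 ± 0.08 and did not pass. Ugp2, which makes the activated glucose used for glycogen, had 0.10 ± 0.08 and -0.02 ± 0.08 and did not pass.

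Gys1, the glycogen synthase outside the liver (chr7:45434844-45456619), read 76.9, 80.6, 74.7 and 88.8 CPM in wild type and 179, 203, 105 and 192 CPM in mutants on the moderate diet. Levels with the enriched diet were 94.1, 81.2, 83.4 and 103 CPM in wild type and 218, 240, 168 and 184 CPM in mutants. All mutants were higher than all wild type libraries of their diet. The log2 fold change was 1.08 ± 0.16 and 1.18 ± 0.17 (edgeR adjusted p = 0.000834 and 0.000235), and on the moderate diet 0.91 without the 3 libraries (adjusted p = 0.0941). Gys1 shares 310 exon bases with Ruvbl2 on the other strand, which had log2 fold changes of 0.28 and 0.14 and did not pass.

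Gbe1, the enzyme that adds branches to glycogen (chr16:70313949-70569716), read 29, 30.1, 27.7 and 29.2 CPM in wild type and 63.8, 66, 33.4 and 68.9 CPM in mutants on the moderate diet. For the enriched diet the values were 26.9, 30.7, 29 and 30.5 CPM in wild type and 74.5, 60.4, 42.8 and 62.8 CPM in mutants. Moderate diet mutant 3 was just above the highest wild type library, and enriched diet mutant 3 was the lowest of its group. Mutants differed from wild type on the log2 scale by 1.00 ± 0.19 and 1.05 ± 0.19 (edgeR adjusted p = 0.00393 and 0.00113), and on the moderate diet 0.82 without the 3 libraries (adjusted p = 0.23).

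Ppp1r3c (chr19:36731731-36736653), a glycogen-targeting subunit of protein phosphatase 1 that favours glycogen synthesis, had the second largest rise. Wild type read 2.83, 3.24, 2.79 and 3.96 CPM and mutants 29.3, 42.8, 5.44 and 36.3 CPM on the moderate diet. On the enriched diet it read 5.13, 4.02, 4.03 and 4.33 CPM in wild type and 35.2, 53.2, 27 and 35.5 CPM in mutants. All mutants were above wild type, but moderate diet mutant 3 was much nearer to wild type than to the other mutants. The genotype effect on the log2 scale was 3.12 ± 0.44 (8.68-fold) and 3.15 ± 0.43 (8.87-fold), with edgeR adjusted p = 0.00039 and 0.000192.

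Glycogen phosphorylase releases glucose from glycogen, and its isoforms moved apart. Pygl, the liver isoform, rose by 0.78 ± 0.11 and 0.84 ± 0.11 on the log2 scale (edgeR adjusted p = 0.000311 and 0.000139). Pygb, the brain isoform (chr2:150786735-150831758), read 116, 117, 115 and 124 CPM in wild type and 100, 108, 115 and 93.1 CPM in mutants on the moderate diet. Among enriched diet embryos, wild type read 121, 117, 117 and 110 CPM and mutants 99.2, 100, 99.2 and 84.6 CPM. Mutants were below wild type on both diets, moderate diet mutant 3 only barely. Pygb fell on the enriched diet (log2 -0.29 ± 0.07, edgeR adjusted p = 0.007), while -0.18 ± 0.07 on the moderate diet did not pass (adjusted p = 0.134).

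Because isoforms of an enzyme changed by different amounts, their shares within each family were compared as reads per kilobase. For 18 isoforms in 10 families, the mean log2 ratio of an isoform to the rest of its family was tested with a two-sided exact permutation test with genotype permuted within each diet. Over both diets 17 of the 18 passed after Benjamini-Hochberg adjustment, the exception being the Eno1 row, and 14 passed without the 3 libraries of contradicted sex label. Shares in the same family depend on each other, so the 17 are not separate shifts. Within the moderate diet 13 passed. Within the enriched diet none passed, although 10 had the smallest p that 4 against 4 libraries allow (exact p = 0.0286, adjusted 0.0514). These shares rest on the same counts as the fold changes and describe which isoforms moved unequally.

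The share of Pdk1 among the pyruvate dehydrogenase kinases rose and that of Pdk3 fell. Pdk3 was the largest in moderate diet wild type with 60.0% ± 2.33 (SD, n = 4) and Pdk1 second with 37.0% ± 1.86, while in the mutants Pdk1 held 58.4% ± 5.88 and Pdk3 40.1% ± 5.44. Pdk1 on the enriched diet went from 43.6% ± 5.28 to 60.8% ± 2.29 and Pdk3 from 53.5% ± 5.09 to 37.6% ± 2.43. Pdk1 exceeded Pdk3 in all 8 mutants and in 1 of the 8 wild type libraries, enriched diet wild type 4 (49.7% and 47.7%). The exact permutation test over both diets gave p = 0.000408 for Pdk1 and for Pdk3, the smallest it can give, with adjusted p = 0.000918. On the moderate diet the share of Pdk1 was 34.5 to 39.0% in wild type and 49.7 to 62.5% in mutants, and on the enriched diet 38.2 to 49.7% and 58.5 to 63.7%, without overlap on either.

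Among the PFKFB genes, Pfkfb3 went from 65.4% ± 2.44 to 87.7% ± 6.41 on the moderate diet and from 69.6% ± 2.95 to 90.8% ± 1.22 on the enriched diet. Pfkfb4 went from 25.4% ± 1.94 to 7.93% ± 5.05 and from 21.9% ± 1.25 to 5.24% ± 1.01. Both had the smallest exact permutation p over both diets (0.000408, adjusted 0.000918), and no mutant overlapped with wild type. Pygl rose within glycogen phosphorylase from 8.12% ± 0.62 to 14.8% ± 2.03 and from 9.45% ± 0.80 to 18.4% ± 0.58, with the same exact p.

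Pfkp remained a minor phosphofructokinase in the mutants. Its share went from 0.595% ± 0.057 to 1.80% ± 0.49 on the moderate diet and from 0.736% ± 0.29 to 2.52% ± 0.96 on the enriched diet, with the smallest exact permutation p over both diets. Pfkm went from 19.1% ± 0.60 to 12.8% ± 0.37 and from 15.6% ± 0.96 to 13.7% ± 0.88 (exact permutation p over both diets = 0.000816, adjusted 0.00134). Pfkl went from 80.3% ± 0.63 to 85.4% ± 0.54 on the moderate diet. On the enriched diet it held 83.7% in both genotypes (exact permutation p = 0.943). Eno2 went from 1.43% ± 0.42 to 9.08% ± 6.04 and from 1.67% ± 0.65 to 17.6% ± 12.3 of the rows Eno1, Eno2 and Eno3, and reached 35.5% in enriched diet mutant 4 (exact permutation p over both diets = 0.00122, adjusted 0.00184). With the abundant Eno1b added to Eno1, a choice made after seeing the data, Eno2 went from 0.341% ± 0.12 to 2.07% ± 1.40 and from 0.395% ± 0.18 to 4.92% ± 3.99 of enolase (exact permutation p over both diets = 0.00163, adjusted 0.00245). Its highest share was then 10.7%, in enriched diet mutant 4.

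**Figure D4:**
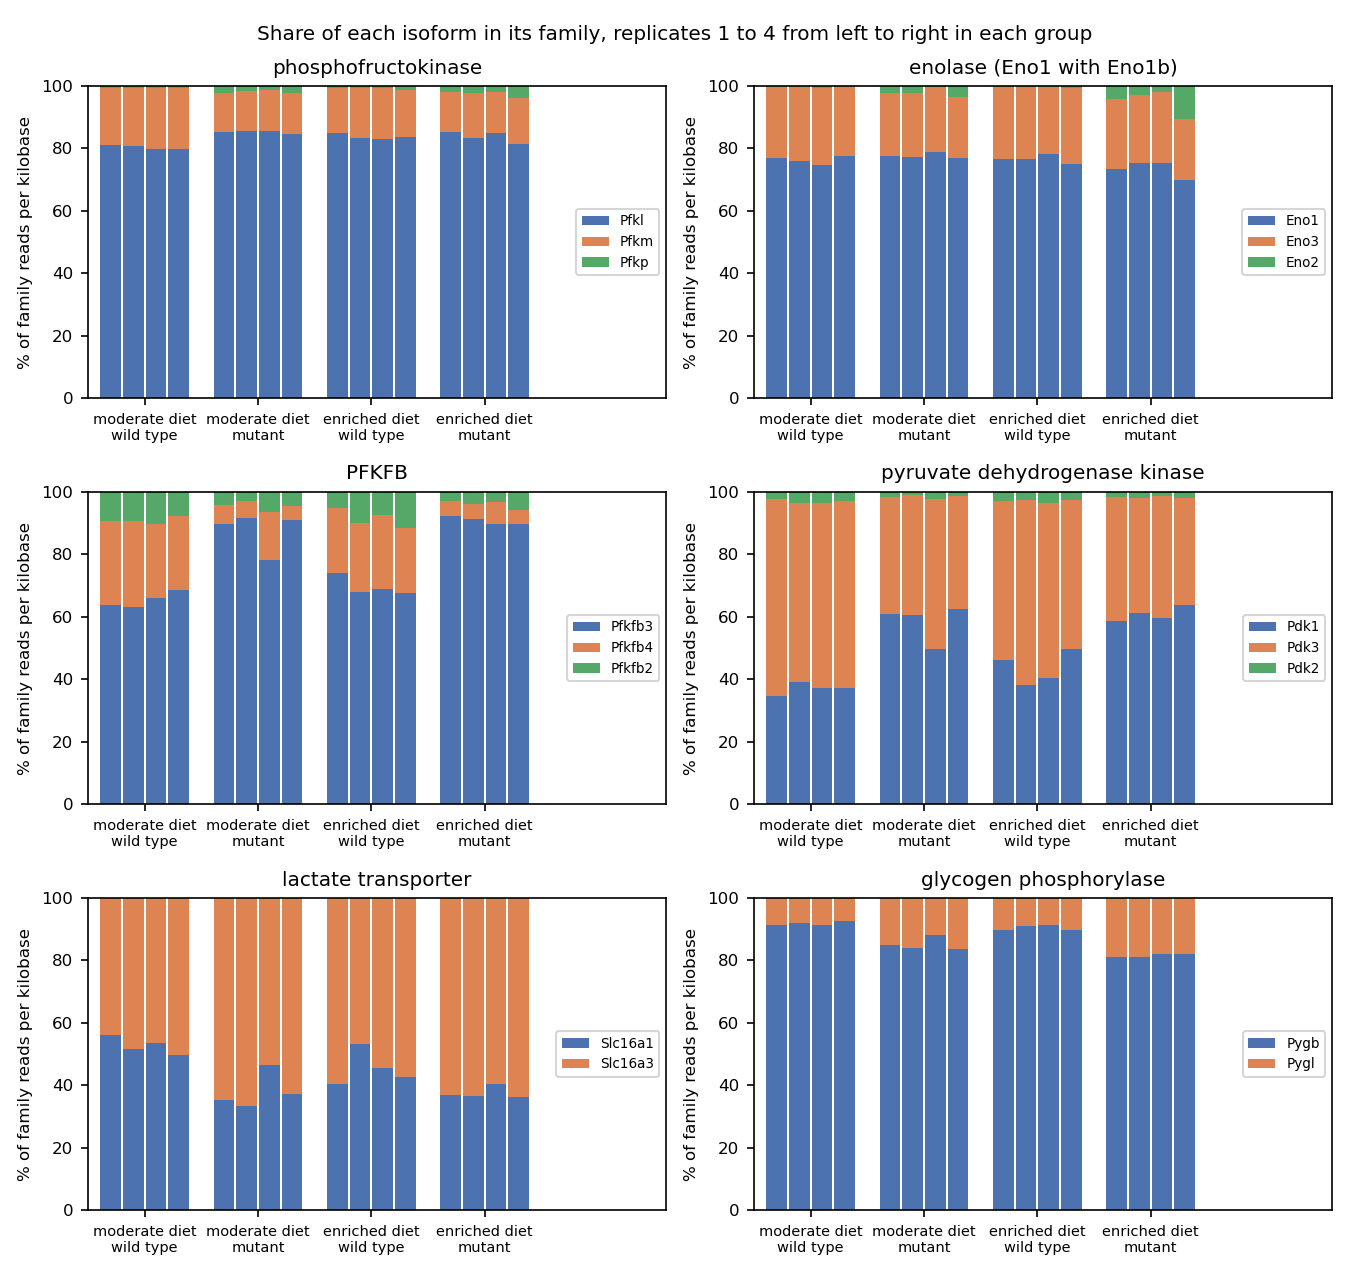
Share of each isoform in the summed reads per kilobase of its family, in percent, with a stacked bar for each of the 16 libraries. Pdk1, Pfkfb3, Pygl and Slc16a3 take more of their family in mutants, and for these 4 moderate diet mutant 3 lies between moderate diet wild type and the other mutants of its group.

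Shares also shifted among the hexokinases, lactate carriers, lactate dehydrogenases and glucose carriers. Hk2 went from 82.4% ± 1.27 to 86.5% ± 1.67 of hexokinase on the moderate and from 82.3% ± 2.16 to 87.4% ± 0.70 on the enriched diet. Slc16a3 went from 47.3% ± 2.74 to 61.9% ± 5.78 and from 54.6% ± 5.60 to 62.5% ± 2.01 of the lactate carriers. Ldhb was a minor part of lactate dehydrogenase, with 3.34% ± 1.05 in wild type and 1.69% ± 0.50 in mutants on the moderate diet. On the enriched diet it held 2.73% ± 0.56 and 2.38% ± 0.83, with overlap between the groups (exact permutation p = 0.486). Slc2a3 went from 33.9% ± 2.92 to 37.0% ± 1.27 and from 33.0% ± 3.61 to 40.1% ± 2.81 of the glucose carriers. For these 4 the exact permutation test over both diets gave adjusted p values of 0.000918, 0.00134, 0.022 and 0.00787.

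Moderate diet mutant 3 had the lowest level of its group for 29 of the 38 genes. For the 28 genes higher in mutants over both diets, its median position was 0.419 of the way from the wild type mean to the mean of all other mutants. Both means were taken over the 2 diets together, and moderate diet mutants 1, 2 and 4 had 1.08, 1.27 and 0.988. At 2.01 CPM, moderate diet mutant 3 had the lowest Ift88 level of all libraries. It was also the highest of its group in the sums of red cell markers (3440 CPM against 1270 to 1880), heart and muscle markers (24.2 CPM), yolk sac markers (40.8 CPM against 8.74 to 39.5) and decidua and placenta markers (11.3 CPM against 2.8 to 4.18). The part of these cells in its levels was not tested. Without it, 30 genes passed on the moderate diet, with Pfkm and Pygb added, and 2107 of all genes in place of 1106. Mutant 4 of the enriched diet was the lowest for 21 of the 38 genes, at a median position of 0.838, and 30 genes passed without it. Leaving out each enriched diet library in turn gave 3023 to 4572 of all genes on that diet.

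A list of 22 genes known to answer to low oxygen, outside glycolysis, moved in the same libraries. All 22 rose on both diets, where 4.24% of all genes did, with median log2 fold changes of 1.99 and 2.16. Their summed level was 805 to 881 CPM in moderate diet wild type and 880 to 1160 CPM in enriched diet wild type. It was 2770 to 3250 CPM in moderate diet mutants 1, 2 and 4, 1300 CPM in mutant 3, and 2620 to 3530 CPM in enriched diet mutants. The genes with the smallest p were Ndufa4l2, a mitochondrial protein (log2 3.83 and 3.56), Adm, the peptide adrenomedullin (5.37 and 5.37), P4ha2, a collagen prolyl hydroxylase (1.95 and 1.57), Stc2, a secreted glycoprotein (2.96 and 3.08), and Ero1l, an oxidase of the endoplasmic reticulum (1.91 and 2.25). Earlier results of these data were known when the list was drawn up, and it is no independent evidence. Its part in the changes of the 38 genes was not tested.

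Markers of other cells were read in the same libraries, beside all genes tested. Of these, 4.79% rose and 2.83% fell on the moderate diet, and 14.4% rose and 16.8% fell on the enriched diet. Of the 12 tested red cell markers, all had negative log2 fold changes on both diets (median -0.97 and -0.69), with Epor called on the moderate diet and Tal1, Klf1 and Epor on the enriched diet, and 3 of the 16 in the tables were at 0 in every library. Their summed level ranged from 2510 to 6620 CPM in wild type and 1270 to 3440 CPM in mutants on the moderate diet, and from 1550 to 3880 CPM and 736 to 3620 CPM on the enriched diet. Of 14 endothelial markers, 2 rose on the moderate diet, and 2 rose and 5 fell on the enriched diet, with sums of 459 to 592 CPM over all libraries. Flt1 and Pecam1 were the 2 that rose on each diet. Surface ectoderm markers read 238 to 272 CPM in wild type and 273 to 325 CPM in mutants on the moderate diet, and 220 to 316 CPM and 256 to 313 CPM on the enriched diet, with Krt19 called higher on both. Visceral endoderm and yolk sac markers reached 140 CPM in enriched diet mutant 4, against at most 40.8 CPM elsewhere, and decidua and placenta markers 194 CPM in enriched diet mutant 3, against at most 11.3 CPM elsewhere. The part of these cells in the differences was not tested. Without enriched diet mutant 3, 29 of the 38 genes passed on the enriched diet. Leaving out each enriched diet library in turn, 3023 to 4572 of all genes passed there.

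Diet changed none of the 38 genes past the threshold. In wild type, edgeR called 0 of the 38 genes and 0 of all genes (percentage called 0), with 6 of the 38 at an unadjusted p under 0.05, where 2.44% of all genes were. DESeq2 called 0 of the 38 and 1 of all genes, with 7 of the 38 at an unadjusted p under 0.05, and limma-voom called 0 and 0, with 5. All 6 were higher on the enriched diet: Pfkl (log2 0.32 ± 0.08), Tpi1 (0.44 ± 0.12), Pgam1 (0.35 ± 0.11), Ldha (0.34 ± 0.12), Aldoa (0.34 ± 0.13) and Aldoc (0.59 ± 0.27). The adjusted p from edgeR was 0.967 for each. Log2 differences were positive for 32 of the 38 genes, with a median of 0.13 beside 0.00 for all genes. Enriched diet wild type 1 was the highest of its group for 24 of the 38, and without it 29 were positive, with a median of 0.10.

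In mutants, edgeR called 0 of the 38 genes and 0 of all genes between diets, with 2 of the 38, Pygl (log2 0.28 ± 0.11) and Pfkm (0.14 ± 0.07), at an unadjusted p under 0.05, where 10.8% of all genes were. DESeq2 called 0 of the 38 and 3 of all genes, and limma-voom 0 and 0, with 2 and 3 of the 38 at an unadjusted p under 0.05. The difference between the genotype effects of the 2 diets was not called for any of the 38 genes by edgeR, DESeq2 or limma-voom, with 6 of the 38 at an unadjusted p under 0.05 by each tool, where 9.65% of all genes were by edgeR. Of these 6, the genotype effect was smaller on the enriched diet for Ldha (log2 difference -0.51 ± 0.16), Tpi1 (-0.48 ± 0.16), Pgam1 (-0.41 ± 0.14), Pfkl (-0.29 ± 0.11) and Pkm (-0.28 ± 0.11), and larger for Pfkm (0.21 ± 0.09). Their edgeR adjusted p was 0.501. The median difference over the 38 genes was -0.11, and it turned to 0.04 without the 3 libraries of contradicted sex label.

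**Figure D5:**
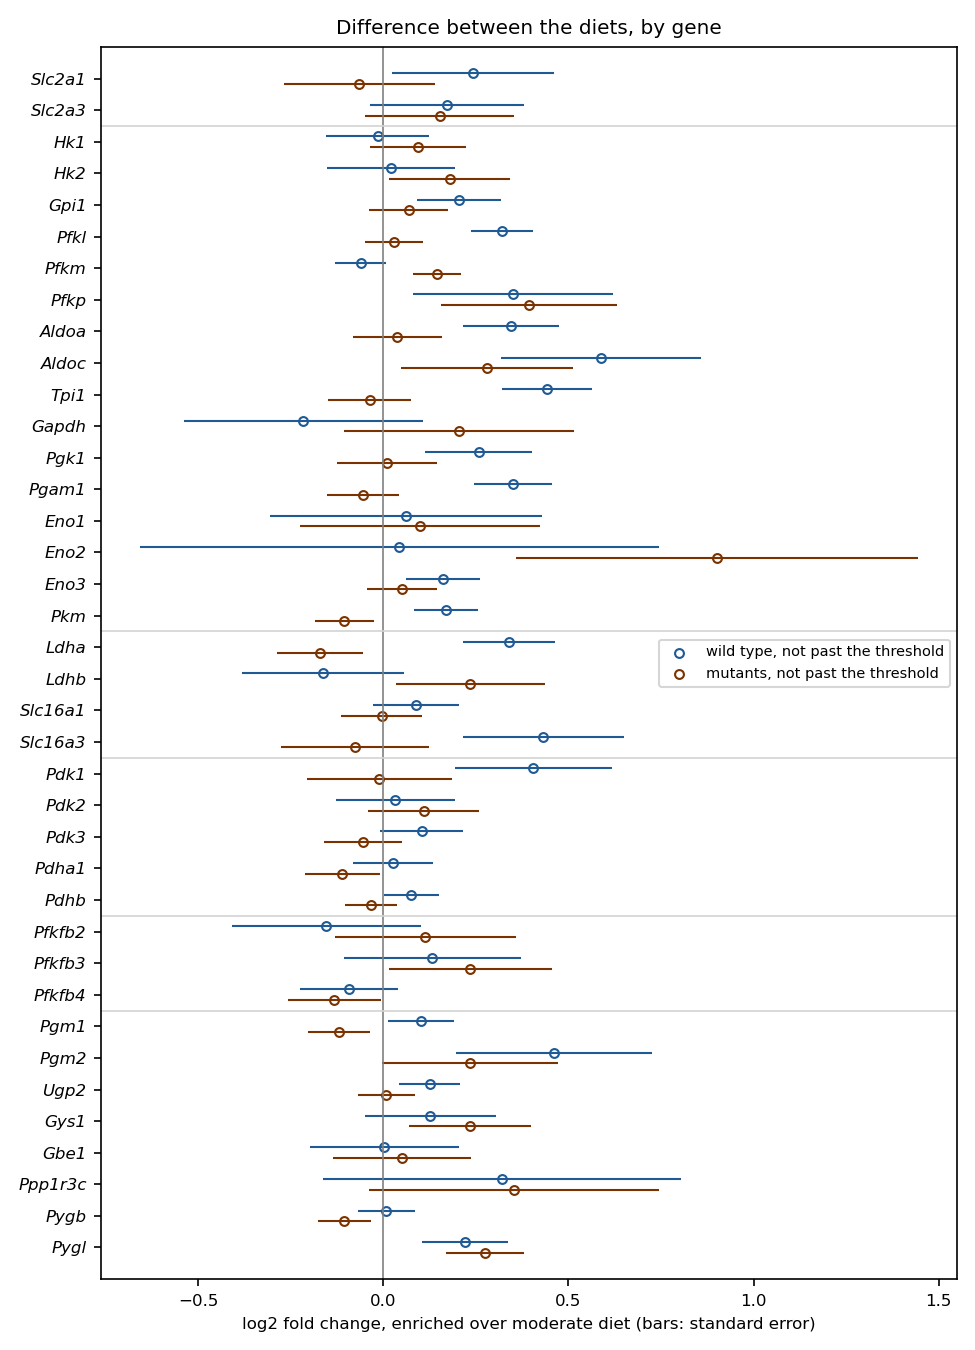
Log2 fold change of the enriched over the moderate diet for each of the 38 genes in wild type (blue) and in mutants (brown), with standard errors as bars. All points are open, since no edgeR adjusted p was under 0.05, and most wild type points lie right of zero.

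Lists of further genes of the same and neighbouring pathways are read beside all genes tested, of which 7.62% passed on the moderate diet and 31.2% on the enriched diet. Of 17 tested further genes of glycolysis, edgeR called 0 on the moderate diet, with 6 at an unadjusted p under 0.05, and 3 rose and 5 fell on the enriched diet. Bpgm, the bisphosphoglycerate mutase of red cells, had log2 -0.72 ± 0.15 there, Gpd1l, a glycerol phosphate dehydrogenase relative, -0.37 ± 0.08, Pgam2, the muscle phosphoglycerate mutase, -1.17 ± 0.29, and Galm, which interconverts forms of glucose, 0.37 ± 0.11. Of 11 further carriers of sugars and lactate, 2 rose on each diet and 1 and 2 fell. Bsg, the chaperone of the lactate carriers, rose by 0.60 ± 0.11 and 0.42 ± 0.11, and Slc2a8 by 0.53 ± 0.13 and 0.60 ± 0.13. Slc2a5, the fructose carrier, had -0.73 ± 0.20 and -1.25 ± 0.21, and Slc2a10 had -0.65 ± 0.15 on the enriched diet. The edgeR adjusted p was at most 0.0348 for these calls.

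Of 21 tested further glycogen genes, 5 rose and 1 fell on the moderate diet, and 7 rose and 1 fell on the enriched diet. Further glycogen-targeting phosphatase subunits, relatives of Ppp1r3c, were among them, Ppp1r3g (log2 1.98 ± 0.31 and 1.51 ± 0.31) and Ppp1r3b (1.22 ± 0.28 and 1.57 ± 0.28). Gaa, which degrades glycogen in the lysosome, rose by 0.45 ± 0.10 and 0.62 ± 0.10, and Pgm5 fell, with -0.84 ± 0.16 and -1.11 ± 0.17. Of 2 tested genes of glucose release, Slc37a4, the glucose phosphate carrier of the endoplasmic reticulum, rose by 1.36 ± 0.21 and 1.43 ± 0.21. Of 13 further genes of pyruvate entry and use, Pck2, the mitochondrial carboxykinase, rose by 1.54 ± 0.28 and 2.23 ± 0.29, and on the enriched diet Pcx rose (0.29 ± 0.08) and Pdhx fell (-0.27 ± 0.07).

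The pentose phosphate pathway and the citric acid cycle use the same sugars and pyruvate. Of 11 pentose phosphate genes, edgeR called 0 on the moderate diet, with 1 at an unadjusted p under 0.05. On the enriched diet Pgd (log2 -0.64 ± 0.10), Taldo1 (-0.63 ± 0.12) and Rbks (-0.71 ± 0.19) fell and H6pd (0.37 ± 0.11) rose. Of 18 genes of the citric acid cycle, 1 rose and 1 fell on the moderate diet, and 2 rose and 3 fell on the enriched diet. The 4 of 11 and 5 of 18 called on the enriched diet are near the 31.2% of all genes. Ogdh, a subunit of the oxoglutarate dehydrogenase complex, had -0.35 ± 0.08 and -0.46 ± 0.08, and Idh2, the mitochondrial isocitrate dehydrogenase, 0.33 ± 0.09 and 0.31 ± 0.09. Dlst (-0.25 ± 0.06) and Sdhd (-0.40 ± 0.11) fell on the enriched diet. The median log2 fold change of the cycle was 0.03 and -0.16.

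Among 20 regulators of glycolysis genes, 1 rose and 3 fell on the moderate diet, and 3 rose and 3 fell on the enriched diet. Hif1a, the oxygen-regulated subunit of HIF1, was lower in mutants at the level of RNA, with log2 -0.35 ± 0.10 and -0.46 ± 0.10. Arrdc4 and Txnip, arrestin relatives that hold back glucose uptake, fell on the moderate diet (log2 -1.88 ± 0.35 and -2.18 ± 0.46), and Arrdc4 also on the enriched diet (-1.74 ± 0.36). Mycn, a MYC family factor, rose by 0.59 ± 0.14 and 0.47 ± 0.14. On the enriched diet Egln2, an oxygen-sensing hydroxylase, had -0.47 ± 0.08, and Prkaa2, a catalytic subunit of the energy sensor AMPK, 0.76 ± 0.15. The edgeR adjusted p for these calls lay between 0.000992 and 0.0411.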

How the data were processed

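RNA was sequenced from 16 head samples, 4 in each combination of 2 genotypes and 2 diets. Per the labels' protocols, RNA came from an AllPrep kit and libraries were made without strand information (TruSeq RNA, version 2). Per the submitters' processing notes, FastQC 0.11.5, TopHat2 2.1.1, SAMtools 1.8, HTSeq 0.9.1, DESeq2 1.22.2 and build mm10 were used. The sources used here do not give the annotation, counting mode or strand option. The authors deposited raw, whole-number counts for each gene symbol, not normalized. The 5 summary lines that HTSeq adds were left out (reads on no feature, 13.7 to 17.0%, and ambiguous reads, 1.20 to 1.39%). These percentages are of assigned, no-feature and ambiguous reads together. Alignments that were not unique, also left out, are given as a percentage of the number of assigned reads. They stood at 77.8 to 83.6% in moderate diet wild type and 82.5 to 94.9% in moderate diet mutants. The enriched diet gave 78.6 to 91.0% in wild type and 77.2 to 91.0% in mutants.

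Counts were scaled by trimmed means of M values and fitted with edgeR 4.0.16 (R 4.3.3, limma 3.58.1) to all 16 libraries, with a coefficient per group and the labelled sex as a covariate. Genes needed at least 10 counts in at least 4 libraries. P-values were adjusted by Benjamini-Hochberg over 14514 genes, with a threshold of 0.05, and a standard error is the log2 fold change divided by the square root of F. Replicates of a group differed by more than sampling noise in all 24 pairs (chi-square of 6.52 to 69.9 per gene), so each counted as 1 sample. Counts were simulated for 14514 genes with changes by genotype on the moderate diet. Of these, 14% of 1.25-fold, 58% of 1.5-fold, 88% of 2-fold and 100% of 4-fold changes were recovered, with 4 false calls. The changes were planted only in genes with more counts than the filter asks for, so recovery at low counts was not tested.

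The 38 genes and all lists were chosen with earlier results of these data known. Values of single libraries are printed for genes that changed by at least 1 on the log2 scale over both diets and passed the threshold, and for those that fell. Of each further pathway list the 4 called genes of smallest p are named, except 1 gene that is not reported here. Coordinates come from GENCODE vM21 and exon lengths from the union of its exons, both by symbol. Promoter windows come from RefSeq on GRCm38.p6. Alternatives were median-of-ratios scaling, DESeq2 1.42.0, limma-voom, other filters, no sex covariate, sex read from counts, the compared groups alone, a block for the replicate number, Eno1 summed with Eno1b, and leaving out each library. Leaving out the 3 libraries of contradicted sex label was chosen after seeing the data, as was the isoform comparison with Eno1b.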

Additional observations from a re-analysis of the deposited data

Results flagged for a closer look

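In each group of 4 libraries, the highest and the lowest value of each of the 38 genes were compared with the other 3. A library was far from the others, by Dixon's ratio, in 8 of 152 groups, and chance flags about 1 in 20 groups. Moderate diet mutant 3 accounted for 4 of the 8: Hk1 read 69.2 CPM there against 103 to 109 CPM in the other 3 mutants, Pfkfb3 86.5 against 218 to 238 CPM, Pgm2 126 against 299 to 322 CPM and Gbe1 33.4 against 63.8 to 68.9 CPM. Enriched diet mutant 4 was low for Eno3, with 60.9 CPM against 78.0 to 80.0 CPM, and for Pygb, with 84.6 against 99.2 to 100 CPM. Moderate diet wild type 4 was low for Hk2, with 206 against 216 to 217 CPM, and enriched diet wild type 1 was high for Eno3, with 66.3 against 56.5 to 58.1 CPM.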

How the results depend on the processing

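Of the 38 genes, 28 passed on the moderate diet, 30 on the enriched diet and 30 averaged over both. Leaving out each library in turn gave 26 to 30 on the moderate diet, 26 to 30 on the enriched diet, 30 in every case averaged, and 16 to 18 of the isoform shares in place of 17. All genes called on the moderate diet, 1106, became 2107 without moderate diet mutant 3 and 538 (without mutant 1) to 784 (without wild type 4) without each of the other 7 libraries there. They ranged from 3023 to 4572 on the enriched diet, in place of 4524. Without the 3 libraries of contradicted sex label, 13 of the 38 passed on the moderate diet, 30 on the enriched diet and 30 averaged, and 105 of all genes passed on the moderate diet. That setting leaves 5 libraries there. The diet comparisons and the interaction called 0 of the 38 in every setting run, and no call of the 38 genes changed direction in any setting run. Labels give groups the same replicate numbers. Deviations of same-numbered libraries correlated over 0.1 in 6 of 16 pairs (-0.291 to 0.505), and differently numbered pairs gave -0.444 to 0.392. With litters unknown, these values cannot decide whether the numbers pair the samples. The main fit treated the libraries as unpaired. With the replicate block, 28, 30 and 30 genes passed and the diet comparisons and interaction gave 0. Depth limits the rows of few counts, Eno1 (6 to 19 counts) above all.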
